A study of Mus musculus with 8 samples.

Results

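The nuclear receptor genes other than the glucocorticoid receptor gene were followed in brown adipose tissue, a heat-producing fat, of cold-exposed mice. Of 38 receptor genes on a list of family members, 36 could be matched by gene symbol to 1 probe set each among the 21115 probe sets of the array table. Nr1h2 and Nr2e3 were not analysed here. The tissue came from 4 GRBATKO mice, described as lacking the glucocorticoid receptor in brown fat, and from 4 control mice, which the sample labels call wild type and the design text calls Flox. All 8 mice had been kept at 5 °C for 1 week and were 16 to 20 weeks old when the cold began, and no mice kept warm were analysed here. Neither the promoter that drives the deletion nor the sex of the mice is stated in the labels used here. RNA was hybridised to Affymetrix Mouse Gene 1.1 ST arrays, and all values below are log2 intensities of a probe set after robust multi-array averaging (RMA).

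Nuclear receptors are transcription factors, most of which carry a DNA-binding domain of zinc fingers and a pocket for a small fat-soluble ligand such as thyroid hormone, retinoic acid, an oxysterol or a fatty acid. Many of them bind DNA as a pair with a retinoid X receptor, so the retinoid X receptors serve thyroid hormone, retinoic acid, peroxisome proliferator-activated (PPAR) and liver X receptors as a common partner. In brown fat, PPAR gamma directs the formation of fat cells, PPAR alpha and the estrogen-related receptors act on genes of fatty acid oxidation and mitochondria, and thyroid hormone receptors act on heat production.

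None of the 36 receptors passed the threshold between genotypes. In 2 of them (5.56%) the mice of the 2 genotypes did not overlap, a share no higher than the 5.64% of all probe sets. Esr1, the gene of estrogen receptor alpha, was higher in all 4 GRBATKO mice than in any control mouse, at 1.38 times the control level. Ppard, the gene of PPAR delta, a fatty acid sensor found in many tissues, was lower in all 4 GRBATKO mice than in any control mouse, at 0.796 of the control level. Pparg, Ppara, Nr1h3 and Thra, the receptors of highest intensity, differed by -0.07 to 0.08 on the log2 scale. The glucocorticoid receptor gene Nr3c1 itself was 7.81, 7.72, 7.61 and 7.83 in the GRBATKO mice, against 8.56, 8.67, 8.68 and 8.51 in the control mice. Nr3c1 fell by 0.86 (SE 0.08, limma adjusted p = 0.00697), so all 8 arrays matched their labels in this gene. Its intensity in GRBATKO tissue was 0.549 of that in control tissue, so part of the signal remained.

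The annotated start regions of Esr1 and Ppard, whose groups did not overlap, are shown first, because a glucocorticoid receptor can act by binding near a gene's start. Each line holds the 250 bases before an annotated start, 5′ to 3′ on the gene's strand, from RefSeq on build GRCm38.p6, and of the 36 measured receptors 33 had at least 1 such window.
Esr1, first start, chr10:4611739-4611988, plus strand: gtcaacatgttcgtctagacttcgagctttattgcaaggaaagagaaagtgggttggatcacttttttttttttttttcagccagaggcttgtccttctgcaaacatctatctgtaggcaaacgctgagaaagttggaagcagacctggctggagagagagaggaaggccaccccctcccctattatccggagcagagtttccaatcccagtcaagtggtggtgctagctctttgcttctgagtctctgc
Esr1, second start, chr10:4709908-4710157, plus strand: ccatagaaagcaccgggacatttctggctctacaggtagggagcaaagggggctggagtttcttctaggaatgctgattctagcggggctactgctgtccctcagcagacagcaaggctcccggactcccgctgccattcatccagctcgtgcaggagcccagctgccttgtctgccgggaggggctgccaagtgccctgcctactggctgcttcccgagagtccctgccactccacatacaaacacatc
Ppard, chr17:28232504-28232753, plus strand: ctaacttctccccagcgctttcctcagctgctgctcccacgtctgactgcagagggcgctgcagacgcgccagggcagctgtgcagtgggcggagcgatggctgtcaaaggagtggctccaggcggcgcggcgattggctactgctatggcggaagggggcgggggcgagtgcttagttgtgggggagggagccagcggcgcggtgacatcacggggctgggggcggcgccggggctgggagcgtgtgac
Thrb, second start, chr14:17981394-17981643, plus strand: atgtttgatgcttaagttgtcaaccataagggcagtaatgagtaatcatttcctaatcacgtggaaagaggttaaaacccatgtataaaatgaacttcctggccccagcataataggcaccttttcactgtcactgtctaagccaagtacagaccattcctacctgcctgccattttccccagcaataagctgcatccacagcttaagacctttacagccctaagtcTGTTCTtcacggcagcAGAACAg
Capitals mark the glucocorticoid receptor hexamer AGAACA or the hexamer AGGTCA used by many other nuclear receptors, each searched on both strands, with matches free to overlap. The Thrb window is shown because it was the 1 receptor window that held 2 AGAACA matches. The Esr1 windows and the Ppard window held no match to either word, so no letter in them is in capitals. Over the 54 windows of measured receptors, AGAACA was found in 4 (7.41%), of Nr5a2, Esrrb and Thrb, against 16.1% of all 32851 windows. AGGTCA was found in 10 of the 54 (18.5%), against 14% of all windows. The palindrome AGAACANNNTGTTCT and the repeat AGGTCANAGGTCA were in none of the receptor windows and in 0.00913% and 0.0335% of all windows. Letters C and G made up 69.6% of the Ppard window and 47.6% and 59.6% of the Esr1 windows, against a median of 52.4% over all windows. A word match describes these letters only, and more distant sequence was not searched.

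Some facts of all arrays bear on the values. Array medians lay between 4.42 and 4.44, and correlations between arrays over all probe sets lay between 0.990 and 0.993. Control 1 and control 4 had 25th percentiles of 3.03 and 3.05, against 2.88 to 2.90 in the GRBATKO mice and 2.84 and 2.88 in the other controls, so dim probe sets read higher on those 2 arrays. Array position codes put the GRBATKO arrays in rows C and D and the control arrays in rows A and B, so genotype and array row cannot be told apart, while columns 5 and 7 held both genotypes. The labels' extraction text speaks of peritoneal macrophages, whereas Ucp1, which uncouples brown fat mitochondria, ranked first or second on every array, and Cidea, Fabp4, Elovl3, Cox8b, Plin1 and Adipoq had a lowest percentile of 98.5. Dio2, the eighth brown fat gene examined, had a lowest percentile of 85.1. The labels number the samples and do not describe the dissection, so a p-value reflects the scatter among these arrays, part of which may be technical. In whole tissue, fewer cells of a type and less RNA per cell cannot be told apart.

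The receptors were ranked by mean intensity over the 8 arrays, as an order of probe set intensities and not of transcript amounts, since each probe set binds with its own strength. Their means ran from 2.36 for Nr1i2 to 10.44 for Pparg, and 22 of the 36 lay above the middle of the table. The order was nearly the same in both genotypes (Spearman rho 0.989 across the 36 genes, which are not independent replicates), and 16 receptors kept the same rank. Ppard moved most, with place 12 among the receptors in GRBATKO tissue and place 7 in control tissue.

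**Figure D1:**
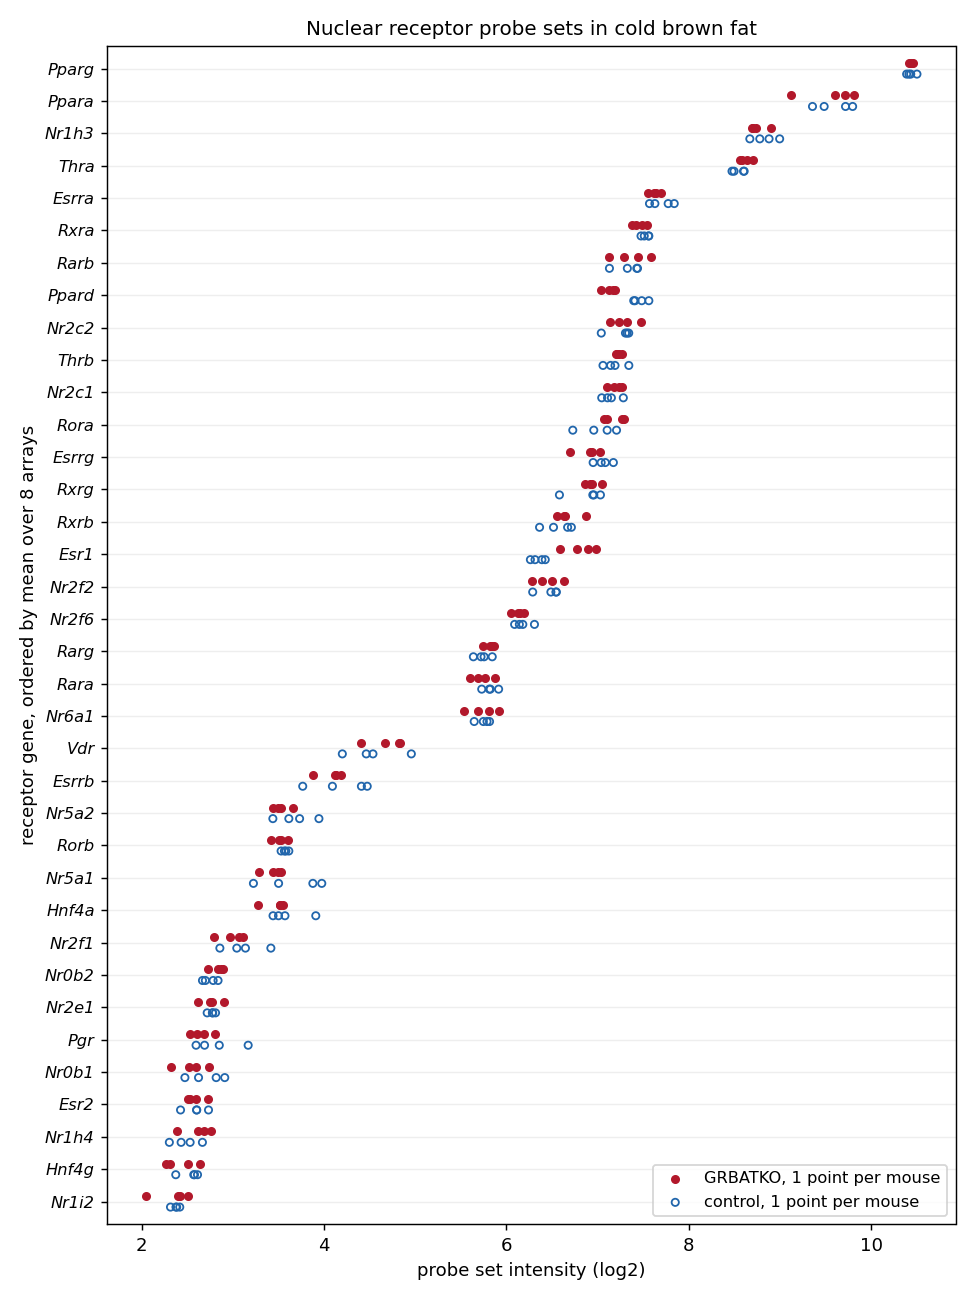
Log2 intensity of the probe sets of 36 nuclear receptor genes (horizontal axis) by gene, ordered from the highest mean at the top to the lowest at the bottom. Each filled red point is a GRBATKO mouse and each open blue point a control mouse (4 each); the rows of Esr1 and Ppard are the 2 in which the colours do not overlap.

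The PPAR family held both the highest receptor and the 1 that was lower without overlap. Pparg was 10.43, 10.46, 10.44 and 10.42 in the GRBATKO mice, against 10.41, 10.50, 10.43 and 10.39 in the control mice. These values overlapped fully, and the difference of 0.00 had a 95% interval of -0.14 to 0.14, the narrowest of the 36 receptors. Ppara, whose product drives fatty acid oxidation genes, was 9.81, 9.12, 9.71 and 9.61 in the GRBATKO mice, against 9.36, 9.49, 9.80 and 9.72 in the control mice. GRBATKO 2 was the lowest of all 8, the groups overlapped, and the interval of the difference (-0.38 to 0.33) was wide. Ppard was 7.04, 7.17, 7.13 and 7.20 in the GRBATKO mice, against 7.56, 7.40, 7.48 and 7.41 in the control mice. The highest GRBATKO mouse lay below the lowest control mouse, and the means were 7.13 ± 0.07 in GRBATKO and 7.46 ± 0.08 in control tissue (SD, n = 4 each). The log2 difference of Ppard was -0.33 (SE 0.07, 95% interval -0.49 to -0.17, limma adjusted p = 0.263). An exact two-sided permutation over the 8 mice gave p = 0.0286, the smallest p that it allows. Any gene whose groups do not overlap has this permutation p, so it only restates the lack of overlap.

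Among the receptors for sex steroids and the estrogen-related receptors, only Esr1 had groups that did not overlap. Esr1 was 6.77, 6.89, 6.98 and 6.59 in the GRBATKO mice, against 6.26, 6.31, 6.43 and 6.39 in the control mice. The lowest GRBATKO mouse exceeded the highest control mouse, with means of 6.81 ± 0.17 in GRBATKO and 6.35 ± 0.07 in control tissue (SD, n = 4 each). The log2 difference of Esr1 was 0.46 (SE 0.10, 95% interval 0.25 to 0.68, limma adjusted p = 0.236; exact two-sided permutation p = 0.0286). Esrra, an orphan receptor of mitochondrial genes, was 7.62, 7.64, 7.56 and 7.69 in the GRBATKO mice, against 7.84, 7.77, 7.63 and 7.57 in the control mice, and the groups overlapped. Its relative Esrrg averaged 6.90 ± 0.14 in GRBATKO and 7.06 ± 0.09 in control tissue (SD, n = 4 each), a difference of -0.17 (SE 0.09, limma adjusted p = 0.657) that was the third smallest p of the receptors. Esrrb and Pgr (the progesterone receptor) differed by -0.11 (SE 0.15) and -0.17 (SE 0.13), and Esr2 (estrogen receptor beta) averaged 2.59 in both genotypes.

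**Figure D2:**
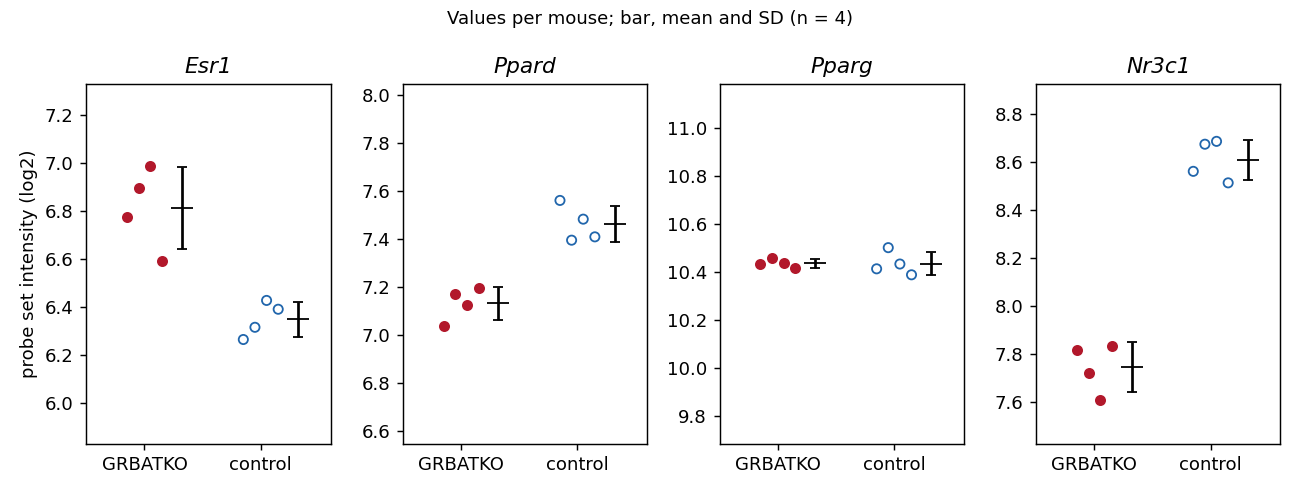
Log2 intensity (vertical axes, all spanning the same range) of Esr1, Ppard, Pparg and the targeted gene Nr3c1 in each mouse, with GRBATKO mice left (filled) and control mice right (open) and the mean and SD of 4 mice beside them. Esr1 is higher and Ppard and Nr3c1 are lower in GRBATKO mice without overlap, while Pparg overlaps at 10.44 in both.

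The counts over the receptors did not exceed those over the whole table. Over all probe sets, 5 (0.0237%) passed an adjusted p of 0.05, and 0 of the 36 receptors were among them in limma, as in each of 22 alternative settings. At an unadjusted p under 0.05 there were 2 receptors (5.56%), against 8.62% of all probe sets. The 1 receptor on the higher side compares with 4.22% of all probe sets, and the 1 on the lower side with 4.4%. Groups did not overlap in 2 receptors (5.56%), against 5.64% of all probe sets, so neither share of receptors was above the background. The median difference over the receptors was -0.02, against -0.0022 over all probe sets, and the median size of the difference was 0.08, against 0.09. An absolute difference over 0.2 was reached by 3 receptors (Esr1, Ppard and Nr5a1, 8.33%) and by 17.5% of all probe sets. The median within-group SD was 0.13 for the receptors and 0.15 for all probe sets.

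**Figure D3:**
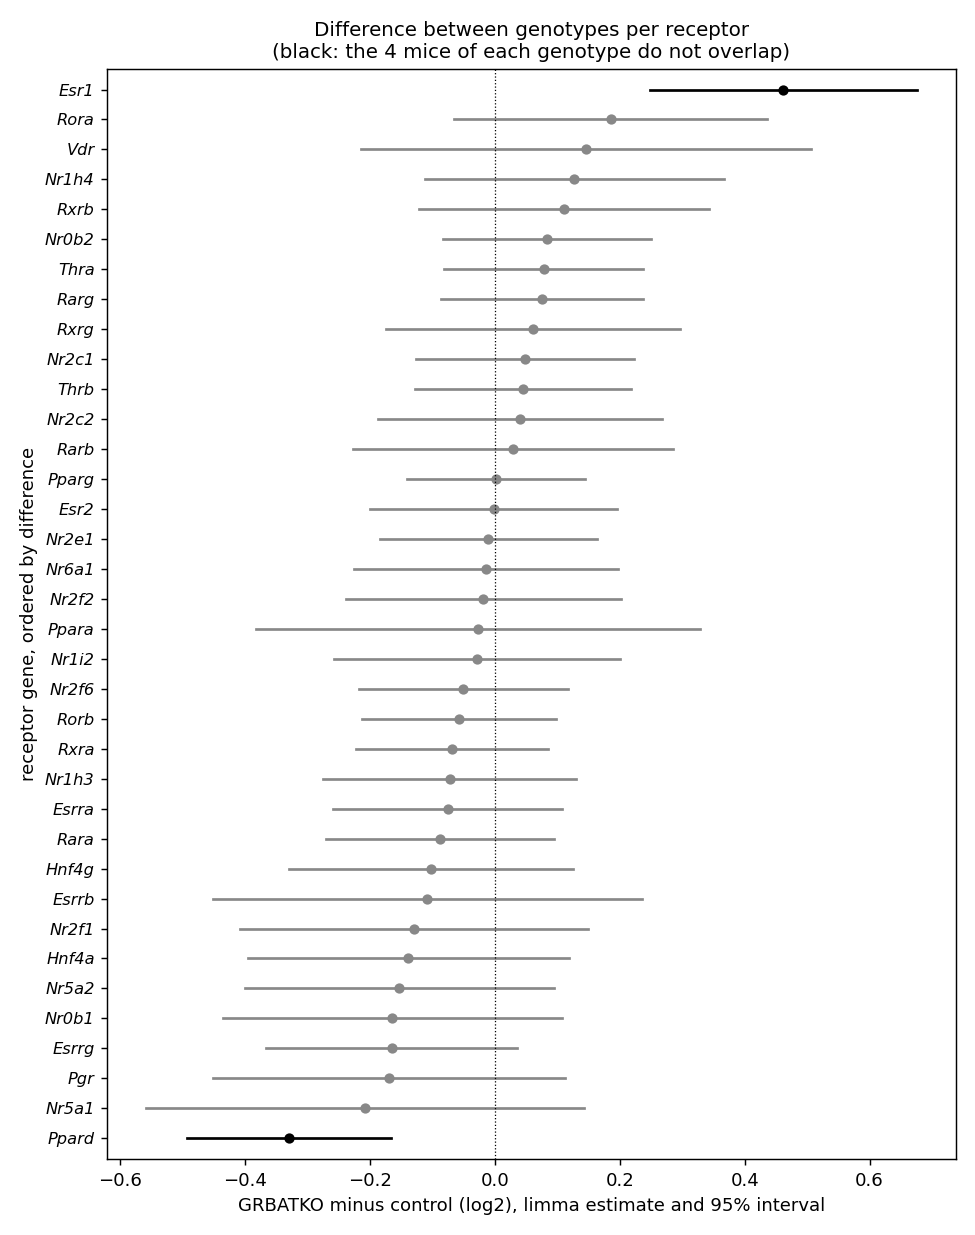
Difference between genotypes, GRBATKO minus control, on the log2 scale (horizontal axis) for each of 36 receptor genes, with the limma estimate as a point and its 95% interval as a line. Black marks Esr1 (0.46) and Ppard (-0.33), whose mice do not overlap; the intervals of the other 34 all include 0.

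The intervals show how large a difference in probe set intensity the arrays could have missed, each for 1 gene without adjustment over the 36. For dim receptors, such as Nr1i2 at percentile 10.4 (-0.26 to 0.20), a narrow interval need not bound a change in transcript. Dim values could not be placed relative to background. For 33 of the 36 receptors the 95% interval lay within 0.5 on the log2 scale in either direction, and for 20 it lay within 0.3. The intervals that reached beyond 0.5 were those of Esr1 (0.25 to 0.68), Nr5a1 (-0.56 to 0.14) and Vdr, the vitamin D receptor (-0.21 to 0.51). Vdr was 4.83, 4.40, 4.67 and 4.84 in the GRBATKO mice, against 4.20, 4.54, 4.96 and 4.46 in the control mice, with control 3 the highest of all.

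Thyroid hormone receptors differed little. Thra was 8.56, 8.58, 8.71 and 8.64 in the GRBATKO mice, against 8.47, 8.497, 8.60 and 8.61 in the control mice. The groups overlapped, and the difference was 0.08 (SE 0.07, 95% interval -0.08 to 0.24). Thrb was 7.23, 7.26, 7.22 and 7.20 in the GRBATKO mice, against 7.14, 7.34, 7.19 and 7.06 in the control mice, with the GRBATKO values lying inside the control range. Of 6 measured genes that activate, carry, bind or inactivate thyroid hormone, none passed the threshold. The 2 of smallest p were Dio2, which makes the active hormone inside brown fat cells (-0.53, SE 0.21, limma adjusted p = 0.561), and Dio1, a second activating deiodinase at 2.82 in GRBATKO and 2.53 in control tissue (0.29, SE 0.12). Of 10 measured target genes of thyroid hormone receptors none passed, 4 had a higher and 6 a lower mean, and the median difference was -0.02. Besides Dio1 the member of smallest p was Bcl3 (-0.34, SE 0.15). Atp2a1, a calcium pump of fast muscle named after its values were seen, scattered widely, at 7.16 in GRBATKO 4 and 3.46 to 3.82 in the other GRBATKO mice, against 9.21 in control 3 and 3.69 to 5.37 in the other control mice. The 2 high mice were also the 2 highest in skeletal muscle markers, and the part of muscle in this value was not tested.

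Retinoic acid receptors and their retinoid X partners also overlapped between genotypes. Rarb was 7.29, 7.58, 7.13 and 7.44 in the GRBATKO mice, against 7.13, 7.44, 7.33 and 7.43 in the control mice. Rara was 5.77, 5.60, 5.87 and 5.69 in the GRBATKO mice, against 5.92, 5.73, 5.81 and 5.82 in the control mice. Both pairs of groups overlapped, and Rarg differed by 0.08 (SE 0.07). Rxra, the broadly expressed retinoid X receptor, was 7.54, 7.43, 7.38 and 7.49 in the GRBATKO mice, against 7.56, 7.51, 7.48 and 7.56 in the control mice, a difference of -0.07 (95% interval -0.22 to 0.09). Rxrb was 6.64, 6.56, 6.88 and 6.64 in the GRBATKO mice, against 6.36, 6.67, 6.71 and 6.52 in the control mice, and the groups overlapped. Rxrg averaged 6.94 ± 0.08 in GRBATKO and 6.88 ± 0.20 in control tissue (SD, n = 4 each), and control 1 was the lowest mouse at 6.58. Among 15 measured genes of retinoid supply and breakdown none passed. Rbp4, the carrier of retinol in blood, was 10.41, 10.46, 10.41 and 10.20 in the GRBATKO mice, against 9.57, 9.81, 10.17 and 10.08 in the control mice. These groups did not overlap, with a difference of 0.46 (SE 0.13, limma adjusted p = 0.413), and Adh1, an alcohol dehydrogenase that can oxidise retinol, differed by 0.12 (SE 0.08). Of 7 measured target genes of retinoic acid receptors none passed, with Crabp2 (-0.13, SE 0.11) and Cyp26a1 (-0.14, SE 0.13) of smallest p.

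Nr1h3, the gene of liver X receptor alpha, which senses oxysterols, was 8.69, 8.90, 8.71 and 8.74 in the GRBATKO mice, against 8.88, 8.997, 8.78 and 8.67 in the control mice. The groups overlapped and the difference was -0.07 (SE 0.09, 95% interval -0.28 to 0.13). Of 13 measured liver X receptor target genes none passed, 8 had a higher and 5 a lower mean in GRBATKO tissue, and the median difference was 0.07. The 2 of smallest p, both exporters of cholesterol, went opposite ways. Abca1 was 8.65, 8.63, 8.71 and 8.74 in the GRBATKO mice, against 8.41, 8.41, 8.54 and 8.48 in the control mice (difference 0.22, SE 0.07, limma adjusted p = 0.443). Abcg1 was 5.57, 5.63, 5.56 and 5.59 in the GRBATKO mice, against 5.93, 6.34, 6.16 and 5.64 in the control mice (difference -0.43, SE 0.14, limma adjusted p = 0.454). Neither pair of groups overlapped, and in Abcg1 control 4 lay close to the GRBATKO mice, so that its difference was -0.56 without control 4 and -0.32 without control 2. The bile acid receptor Nr1h4 and the xenobiotic receptor Nr1i2 lay at percentiles 15.2 and 10.4 of the table and overlapped. Of 8 measured enzymes that make or clear oxysterols, bile acids and vitamin D, none passed. Those of smallest p were Cyp2r1, which starts vitamin D activation (0.34, SE 0.09, limma adjusted p = 0.397, no overlap), and the cholesterol hydroxylase Cyp46a1 (-0.22, SE 0.09).

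Orphan receptors of the NR2 family, for which no ligand is firmly established, all overlapped between genotypes. Nr2c1 and Nr2c2, the testicular receptors, differed by 0.05 (SE 0.08) and 0.04 (SE 0.10). Nr2f2 and Nr2f6, in the group of the chicken ovalbumin promoter factors, differed by -0.02 (SE 0.10) and -0.05 (SE 0.07). Nr2f1, of the same group and at mean levels of 2.99 in GRBATKO and 3.11 in control tissue, differed by -0.13 (SE 0.12). Nr2e1, known from the brain, lay at the 20.9th percentile and differed by -0.01. Rora, a receptor linked to the circadian clock, differed by 0.19 (SE 0.11), and control 2 was the lowest mouse at 6.73. Its relative Rorb differed by -0.06 (SE 0.07). Nr6a1, known from germ cells, differed by -0.01 (SE 0.09).

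Receptors best known from liver, adrenal gland and gonads were dim. Hnf4a, Hnf4g, Nr5a1, Nr5a2, Nr0b1 and Nr0b2 had means between 2.43 and 3.68 in either genotype, and differed by -0.21 to 0.08. Nr0b1 and Nr0b2 code for receptors without the usual DNA-binding domain, which act by binding other receptors. Nr5a1, or steroidogenic factor 1, was 3.45, 3.29, 3.53 and 3.49 in the GRBATKO mice, against 3.88, 3.50, 3.23 and 3.98 in the control mice, with control 1 and control 4 the highest. Without those 2 arrays the difference was 0.07, against -0.21 with all 8.

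The excess of dim receptors with a lower mean was smaller without those 2 control arrays. Of the 14 receptors below the middle of the table by mean intensity, 12 had a lower mean in GRBATKO mice and 2 a higher one, with a median difference of -0.11. Over all probe sets below the middle, 63.9% had a lower mean and the median difference was -0.05. Without control 1 and control 4, 9 of the 14 were lower and 5 higher, the median over the 14 was -0.01, and 44.3% of all those probe sets were lower. Above the middle, 10 of 22 receptors were lower with all arrays and 17 of 22 without those 2, against 37.3% and 52.7% of all probe sets there. Esr1 and Ppard, both above the middle, kept differences of 0.44 and -0.31 without the 2 arrays.

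Esr1 and Ppard were then set beside the marker genes of other cell types. Skeletal muscle markers, 12 of 12 measured and 11 of them lower in mean, summed to linear intensities of 127 to 739 in GRBATKO and 127 to 2497 in control tissue, and control 3 and GRBATKO 4 were the 2 mice above the rest. With mean muscle marker level added to the fit, Ppard differed by -0.32 and Esr1 by 0.45. Macrophage markers, 10 of 10 measured with 5 higher and 5 lower, summed to 811 to 1293 in GRBATKO and 725 to 1113 in control tissue, and lymphocyte markers, 9 of 10 measured and 8 higher, to 190 to 620 and 192 to 326. GRBATKO 3 was the mouse highest in macrophage markers and GRBATKO 2 the highest in lymphocyte markers, and these were also the 2 highest in Esr1. Without GRBATKO 3 the Esr1 difference was 0.40, and without GRBATKO 2 it was 0.43. Endothelial markers, 7 of 7 measured, summed to 3202 to 3336 in GRBATKO and 3138 to 3435 in control tissue. Nerve and Schwann cell markers were measured in 4 of 6 genes, all 4 higher in mean. They summed to 1283 to 1591 in GRBATKO and 1173 to 1363 in control tissue. GRBATKO 2 and GRBATKO 3 had the highest mean level of these markers, and these 2 were also the highest in Esr1. GRBATKO 1, above every control in Esr1, was below average in macrophage, lymphocyte and nerve markers (mean log2 deviations -0.12, -0.26 and -0.06). Control 1, the lowest in Esr1, lay below only GRBATKO 3 in macrophage markers (0.22). No marker was listed at 0, since the lowest intensity in the table was 2.07, and the part of cell makeup in either gene was not tested. Within array column 5 and within column 7, with 2 mice a genotype, Esr1 differed by 0.53 and 0.39 and Ppard by -0.44 and -0.22.

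Cofactors that receptors recruit were measured in 15 coactivator and 8 corepressor genes, of which none passed. Ncoa4, listed among the nuclear receptor coactivators and also a carrier of ferritin, was 7.12, 7.90, 7.78 and 7.45 in the GRBATKO mice, against 6.11, 7.12, 6.85 and 6.35 in the control mice. GRBATKO 1 lay just below control 2, and the difference was 0.95 (SE 0.24, limma adjusted p = 0.338). Pprc1, a relative of the mitochondrial coactivator Ppargc1a, differed by -0.21 (SE 0.13). The median differences were 0.05 for coactivators and 0.06 for corepressors. In the corepressor list Tbl1xr1 (0.21, SE 0.10) and Tbl1x (0.13, SE 0.07), subunits of the same complex, had the smallest p.

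Target genes of PPARs, which act in fatty acid uptake, storage and oxidation, had a median difference of -0.03 over 19 measured genes, with 8 higher and 11 lower means and none past the threshold. The members of smallest p were Acot2, a mitochondrial acyl-CoA thioesterase (-0.16, SE 0.07, limma adjusted p = 0.573), and the peroxisomal enzyme Ehhadh (-0.32, SE 0.14, limma adjusted p = 0.576). Acot2 was 11.23, 11.31, 11.39 and 11.40 in the GRBATKO mice, against 11.42, 11.56, 11.51 and 11.49 in the control mice, with no overlap but a gap between the groups smaller than the spread within either. Of 11 measured target genes of estrogen-related receptors 9 had a lower mean, with a median of -0.06 and none past the threshold. Perm1, a muscle regulator that works with these receptors, was 7.59, 7.63, 7.42 and 7.67 in the GRBATKO mice, against 7.83, 7.94, 7.87 and 7.95 in the control mice (difference -0.32, SE 0.08, limma adjusted p = 0.316), and Cycs, cytochrome c, differed by 0.28 (SE 0.17). With mean muscle marker level in the fit, Perm1 differed by -0.31 (SE 0.09).

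**Figure D4:**
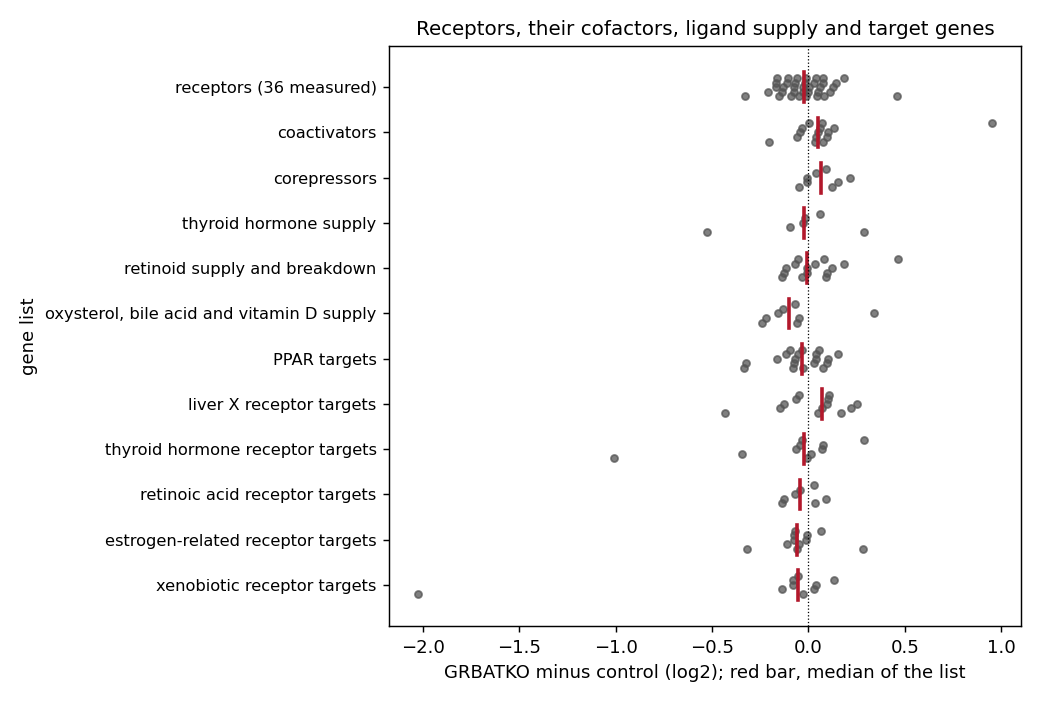
Difference between genotypes, GRBATKO minus control, on the log2 scale (horizontal axis) for the 36 measured receptors and for the genes of 11 lists of cofactors, ligand supply and target genes. Each grey point is a gene and each red bar the median of its list; all medians lie between -0.10 and 0.07, and Cyp2b10 at -2.02 is the 1 gene past the threshold.

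One target gene passed, in the list of xenobiotic receptor targets. Cyp2b10, a cytochrome P450 that the xenobiotic receptors Nr1i2 and Nr1i3 are known to induce in liver, was 3.10, 3.58, 3.11 and 3.85 in the GRBATKO mice, against 5.26, 5.72, 5.49 and 5.28 in the control mice. The groups lay far apart, and Cyp2b10 fell by 2.02 (SE 0.18, limma adjusted p = 0.00595). It was the 1 of 9 measured genes of this list that passed, and 3 of the 9 had a higher and 6 a lower mean. Cyp2c29 followed with -0.14 (SE 0.11), at percentile 12.1. Cyp2b9, Cyp3a11, Cyp3a13, Cyp2c29, Ugt1a1, Abcc2 and Abcc3 lay below the middle of the table, where 63.9% of all probe sets had a lower mean. Nr1i2 was 2.05, 2.40, 2.51 and 2.42 in the GRBATKO mice, against 2.38, 2.32, 2.38 and 2.42 in the control mice, near the floor of the table and with overlap. Nr1i3, a receptor outside the list of members, was 3.03, 3.04, 3.03 and 2.87 in the GRBATKO mice, against 3.16, 3.10, 3.28 and 3.36 in the control mice, with no overlap (difference -0.23, SE 0.08, limma adjusted p = 0.517). Nr1i3 was dim too, at percentile 29.8. Its highest value was in control 4, which with control 1 made up the 2 arrays on which dim probe sets read higher. Controls 2 and 3, at 3.10 and 3.28, also lay above every GRBATKO mouse. The Nr1i3 difference stayed between -0.27 and -0.16 in the alternative settings that kept this probe set. Over the 112 distinct genes of the 11 lists, 13 had an unadjusted p under 0.05 (5 higher, 8 lower) and 8 did not overlap. These were 11.6% and 7.14% of the list genes, against 8.62% and 5.64% of all probe sets. The other receptors outside the list overlapped between genotypes: Nr3c2, the mineralocorticoid receptor, differed by 0.35 (SE 0.15), Nr1d1 and Nr1d2, the clock receptors, by -0.08 (SE 0.21) and 0.44 (SE 0.21), and Nr4a1, Nr4a2 and Nr4a3 by -0.11, -0.16 and -0.14.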

How the data were processed

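Brown adipose tissue of 4 GRBATKO and 4 control mice was measured on 1 array per mouse. The deposited values are linear intensities per probe set, made by the authors with RMA per the submitters' processing notes. Genome build, RMA version and any correction for batches were not given in the sources used here. Linearity was read from the values (2.07 to 9168), and log2 was taken before testing. Without detection calls, dim values cannot be placed relative to background, and precision is limited by the number of arrays. No column belonged to an unlabelled sample.

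Genes were named by the platform annotation (20405 of 21115 probe sets; the other 710 were tested unnamed). The genotypes were tested over all 21115 probe sets by limma 3.58.1 (R 4.3.3; lmFit, then eBayes without trend or robust options), with genotype as the only term and Benjamini-Hochberg adjustment at 0.05. Each gene had 6 residual degrees of freedom, to which the shared prior added 3.46. The 95% intervals come from this fit. Single genes were also tested with a two-sided exact permutation test, in which 70 arrangements allow no p below 0.0286. Percentiles are ranks of a probe set's mean among all probe sets. The script was tested on simulated data.

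The receptors and the gene lists were chosen with earlier results of these data known, so counts over them are descriptions, and no set test was run. Values per mouse were given for receptors of unadjusted p under 0.05 or without overlap, for the 8 of highest mean and for the lowest of each heterodimer family. Vdr, Nr5a1 and Nr1i2 were added after their values were seen. In each list the 2 genes of smallest p were named. Values per mouse of list genes and of Nr1i3 were added after the values were seen, and the split at the middle of the table was also chosen then. Alternatives were other variance priors, the ordinary t statistic, array weights, a second quantile normalization, centring on array medians, leaving out dim probe sets (below percentile 40 by mean) or flat ones (interquartile range up to 0.25), a replicate block, array column as a block and alone, muscle markers as a covariate, and arrays left out.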

Additional observations from a re-analysis of the deposited data

Results flagged for a closer look

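In 5 of 130 groups of 4 mice, over the receptors and the other named genes, 1 mouse lay farther from its nearest neighbour than Dixon's 95% limit allows, and chance flags about 1 group in 20. Among the receptors, control 1 was low in Nr2c2, at 7.04, where controls 2 to 4 lay at 7.31 to 7.34, and Hnf4a was 3.28 in GRBATKO 1 against 3.52 to 3.55 in the other GRBATKO mice. Among the other genes, GRBATKO 4 was low in Rbp4, at 10.20 against 10.41 to 10.46, and in Nr1i3, at 2.87 against 3.03 to 3.04. Control 4 was high in Cycs, at 6.63, where controls 1 to 3 lay at 6.01 to 6.11. None of these genes passed the threshold between genotypes in limma, with or without that mouse.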

How the results depend on the processing

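No receptor passed an adjusted p of 0.05 under any of 22 alternative settings. Esr1 kept its direction in all 22 (0.39 to 0.54, limma adjusted p of 0.124 and above) and had an unadjusted p under 0.05 in 22, and Ppard kept its direction in all 22 (-0.44 to -0.22, limma adjusted p of 0.124 and above) and had an unadjusted p under 0.05 in 21. The count of receptors at an unadjusted p under 0.05 was 1 within array column 7, against 3.68% of all probe sets there, and 2 to 5 with 1 array left out, against 6.48% to 10.8% of all probe sets. The 5 came without control 3, against 8.54% of all probe sets, and added Rora (0.25), Nr5a1 (-0.35) and Nr5a2 (-0.23). After a second quantile normalization the count was 3, against 8.38% of all probe sets, and included Esrrg (-0.21). Receptors without overlap also numbered 3 in that setting, against 5.34% of all probe sets. Receptors without overlap numbered 13 within column 5 and 12 within column 7, where 2 against 2 mice left 36.5% and 30.8% of all probe sets without overlap, and 2 to 4 with 1 array left out, against 7.92% to 11.1% of all probe sets, the 4 without GRBATKO 4 (9.41%). The count of list genes past the threshold was 0 with the ordinary t statistic, the replicate block, column 5, column 7 or without controls 1 and 4, as Cyp2b10 then had adjusted p from 0.0681 to 0.656 (limma and the ordinary t statistic). Nr3c1 kept its direction in all 22 settings (-0.94 to -0.82) and missed the threshold in 6 of them, among them the ordinary t statistic (adjusted p = 0.0710), the replicate block (adjusted p = 0.157) and without GRBATKO 2 (adjusted p = 0.0525). Deviations of same-numbered mice had correlations of -0.03, 0.09, -0.06 and 0.03, within the range of differently numbered pairs (-0.09 to 0.11). Same-numbered arrays also share an array column, and these correlations cannot show whether such mice shared a litter or a day. The replicate block left 0 of the 36 receptors and 1 of all probe sets past the threshold, against 0 and 5 without it.

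Of 748 receptor values under the alternatives, 689 kept direction and side, 55 changed sign where the difference lay within its SE of 0, and 4 reversed from a larger difference. These were Nr2f1 within column 5 (0.069), Hnf4a within column 7 (0.030), and Rxrb (-0.015) and Nr5a1 (0.073) without controls 1 and 4. Of the other named genes, Crabp2 reversed within column 5 (0.023) and Cyp26a1 within column 7 (0.046) and without controls 1 and 4 (0.035). Within a column only 4 mice remain, and the cause of the other reversals was not tested. The filter on dim probe sets kept 23 of the 36 receptors and that on flat ones 5.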
